A study of Homo sapiens with 14 samples.

Results

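The miR-30 family was followed through 14 small RNA libraries of PANC-1, a human cell line established from a carcinoma of the pancreatic duct. The 6 members were the entries of the read count table named hsa-miR-30a-5p, hsa-miR-30b-5p, hsa-miR-30c-5p, hsa-miR-30d-5p, hsa-miR-30e-5p and hsa-miR-30d-3p (the prefix, for human, is left off from here on), out of 2848 entries in all. All 6 passed the filter on low counts, as did 810 of the 2848 entries. Cells received either grape proanthocyanidins (PA, plant polyphenols made of linked flavan-3-ol units) at 20 µg/ml for 3, 12 or 24 h, or the vehicle DMSO for 0, 3, 12 or 24 h. Each of these 7 groups held 2 libraries, lettered A and B, and all came from the same cell line in medium with serum, with no genetic change named in the labels. The question of the series was which miRNAs respond to PA, and when.

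The miR-30 family is made from hairpins whose 5p arm is the abundant, functional strand and whose 3p arm is mostly discarded. A mature miRNA guides Argonaute to messenger RNAs that pair with its seed, the bases near its 5′ end, so members that share a seed share many of their targets. In pancreatic cells the family is known for restraining mesenchymal genes: SNAI1, a repressor of epithelial genes, and the filament protein vimentin are described as targets. The miR-30a hairpin is also the usual backbone for expressed short hairpin RNAs.

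The mature sequences below show how alike the members are, which bears on how reads can be assigned to them. In the RefSeq table used here (GRCh38.p14), 3 of the 6 members and 4 of the 5 other arms were matched by name, with the seed, bases 2 to 8, in capitals here.
miR-30a-5p: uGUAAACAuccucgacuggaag
miR-30e-5p: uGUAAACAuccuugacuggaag
miR-30c-5p: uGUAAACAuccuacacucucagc
miR-30a-3p: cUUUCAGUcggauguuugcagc
miR-30e-3p: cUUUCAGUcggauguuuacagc
miR-30c-1-3p: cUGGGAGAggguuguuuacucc
miR-30c-2-3p: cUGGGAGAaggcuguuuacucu
The 5p members printed share 1 seed, GUAAACA. Counted from 1 at the 5′ end, miR-30e-5p differed from miR-30a-5p at 1 of 22 positions (C13U). Over the same 22 positions miR-30c-5p differed from miR-30a-5p at 5 (C13A, G14C, G18C, G19U and A20C). The 3p arms printed fell into 2 seed groups: miR-30a-3p and miR-30e-3p (UUUCAGU), and miR-30c-1-3p and miR-30c-2-3p (UGGGAGA). Neither arm of miR-30b or miR-30d was matched, so their seeds are not shown here. miR-30e-3p differed from miR-30a-3p by G18A, and miR-30c-2-3p differed from miR-30c-1-3p by G9A, U12C and C22U. The rule for reads that match several entries was not given in the sources used here, so counts of miR-30a-5p and miR-30e-5p, set apart by a single base, are uncertain to the extent that reads were split between them.

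The hairpin of miR-30e is printed whole, with both arms in capitals, because its arms moved apart in these libraries.
MIR30E: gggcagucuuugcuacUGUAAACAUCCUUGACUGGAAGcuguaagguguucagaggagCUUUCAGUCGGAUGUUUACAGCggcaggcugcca
It lies at chr1:40754355-40754446 on the plus strand (GRCh38.p14). MIR30C1 starts 2929 bases further on, and GENCODE places both in introns of NFYC, which encodes a subunit of the CCAAT-binding factor NF-Y, on the same strand. MIR30A (chr6:71403551-71403621, minus strand) and MIR30C2, whose starts are 26591 bases apart, lie in introns of the long non-coding RNA genes LINC00472 and AL136164.2. MIR30C1 and MIR30C2 give the same mature miR-30c-5p, so that entry sums 2 loci.

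MIR30B and MIR30D form the remaining pair, on chromosome 8, with starts 4356 bases apart and no annotated gene over either. The family's 6 hairpins thus sit as 3 pairs. The reads do not show which primary transcript a mature miRNA came from.

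Total counts ran from 1032391 (DMSO 12 h B) to 3111014 (PA 3 h B), with a median of 2076388. Levels are given as CPM, counts divided by the library total and put on the CPM scale after TMM, a between-library scaling by edgeR. CPM is a share of the library and not an amount per cell: in RNA from a whole culture, fewer cells that make a miRNA and less of it per cell cannot be told apart. Markers of the line and of other cells were read from the same table, with all 4 markers of the line in it. Of these, miR-21-5p, abundant in most carcinoma lines, stood at 142163 to 239598 CPM and miR-100-5p at 92439 to 146118 CPM. miR-221-3p stood at 9530 to 25679 CPM and miR-31-5p at 5573 to 9928 CPM. The summed haematopoietic markers stood at 1.64 to 6.37 CPM. Of the acinar and islet markers 4 of 6 names were in the table, with a sum of 2.17 to 10.2 CPM, and the muscle, liver and neuron markers (5 of 6 names) summed to 13.1 to 67.6 CPM. All 5 fibroblast and endothelial markers were in the table, with a sum of 395 to 843 CPM, with miR-126-3p at 386 to 735 CPM and miR-143-3p at up to 149 CPM. The red blood cell markers, 3 of 3 in the table, summed to 296 to 591 CPM, nearly all miR-486-5p, while miR-451a was at 0 in 10 libraries. Replicates A and B differed by more than counting error in every group, with a chi-square over its degrees of freedom of 13.0 (DMSO 3 h) to 78.0 (DMSO 12 h).

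miR-30a-5p was the most abundant member, with a median of 5405 CPM over the 14 libraries. miR-30e-5p followed at 3190 CPM, then miR-30d-5p at 1856, miR-30b-5p at 1664 and miR-30c-5p at 1609 CPM. Mature miRNAs are of nearly equal length, so no length correction was made, but levels of different miRNAs also carry the efficiency with which each is captured in a library. miR-30a-5p exceeded miR-30e-5p in 14 of 14 libraries. miR-30e-5p exceeded miR-30d-5p in 12 of 14, all but the DMSO 12 h pair. The order of miR-30d-5p, miR-30b-5p and miR-30c-5p was not settled: miR-30d-5p was above miR-30b-5p in 10 libraries, and miR-30b-5p above miR-30c-5p in 7. miR-30d-3p, the minor arm of the miR-30d hairpin, had a median of 49.9 CPM, from 58 to 228 counts a library. It lay below miR-30a-3p (416 CPM), miR-30e-3p (241 CPM) and miR-30c-2-3p (88.1 CPM), and above miR-30c-1-3p (41.6 CPM) in 9 of 14 libraries and above miR-30b-3p (20.6 CPM) in its median. Together the 5p members took 1.13% to 1.48% of a library.

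**Figure D1:**
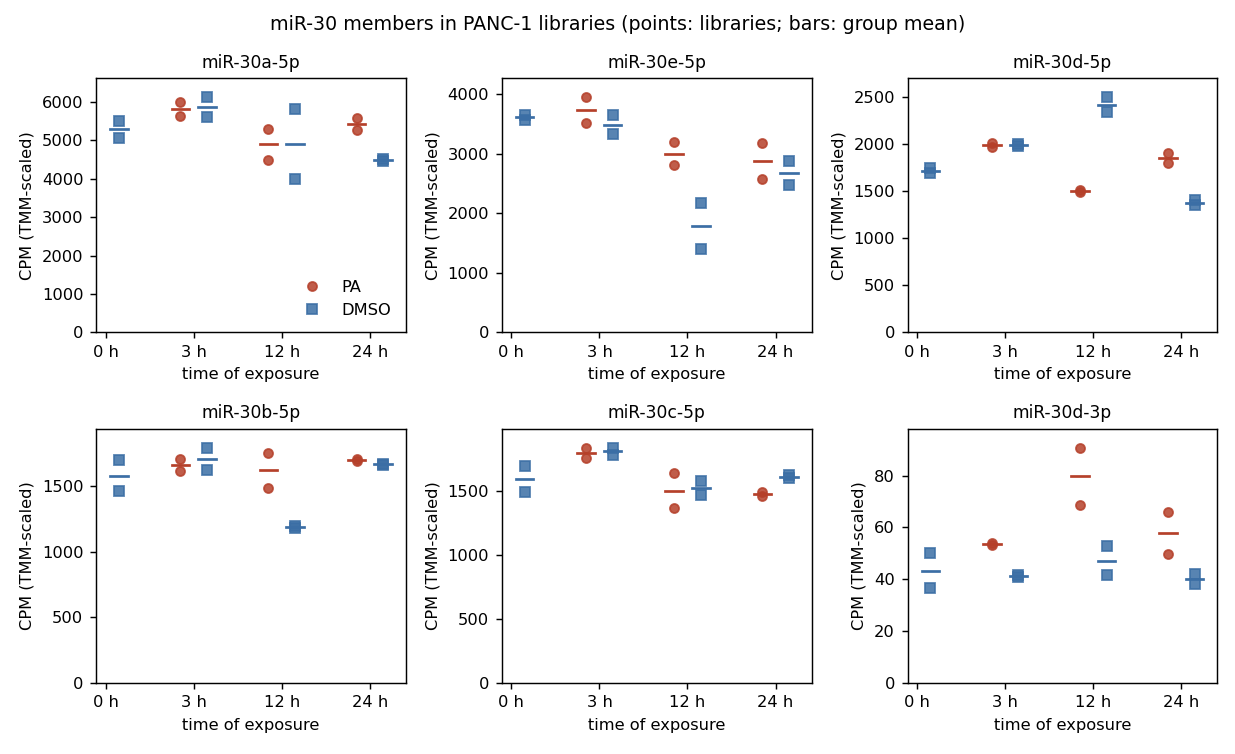
Each panel plots 1 member, with CPM on a linear axis from 0 against time of exposure, PA as circles left of DMSO as squares, 1 point per library and a bar at the group mean. The DMSO 12 h squares stand apart from the other DMSO squares for miR-30e-5p (1397 and 2168 CPM), miR-30d-5p (2340 and 2502 CPM) and miR-30b-5p (1180 and 1193 CPM), and the PA 12 h circles are the highest points for miR-30d-3p (68.6 and 90.8 CPM).

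At 12 h, miR-30e-5p was higher and miR-30d-5p lower with PA than with DMSO. miR-30e-5p had 2814 and 3190 CPM in the PA 12 h libraries A and B, against 2168 and 1397 CPM in DMSO 12 h. The groups did not overlap, and DMSO 12 h B was the lowest of all 14 libraries. Groups of 2 libraries often part without a true difference, and the share of all entries that did so was not counted. A lack of overlap is therefore given, here and below, as description only. The means were 3002 ± 266 CPM with PA and 1782 ± 545 CPM with DMSO (SD, n = 2 each). This was a 1.68-fold difference, a log2 fold change of 0.75 ± 0.20 (SE; edgeR quasi-likelihood test, Benjamini-Hochberg adjusted p = 0.0243 over all 810 entries). An entry is said to rise or fall here when that adjusted p was under 0.05.

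miR-30d-5p had 1490 and 1515 CPM in the PA 12 h libraries, against 2340 and 2502 CPM in DMSO 12 h. Again the groups did not overlap, and the DMSO 12 h libraries were the highest of all 14. PA 12 h averaged 1503 ± 17.4 CPM and DMSO 12 h 2421 ± 115 CPM (n = 2 libraries each, with the SD), and the log2 fold change was -0.69 ± 0.14 (edgeR adjusted p = 0.00617).

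These were 2 of the 6 members, 1 in each direction, where 11.1% of all 810 entries passed at 12 h. The members' median log2 fold change was 0.22, and that of all entries -0.06. Both calls rested on the spread pooled over the 7 groups: in a fit of the 4 libraries at 12 h alone neither passed (adjusted p = 0.137 for miR-30e-5p and 0.121 for miR-30d-5p). miR-30d-5p also did not pass without the filter on low counts (adjusted p = 0.0864), without PA 12 h A (0.0883) or without PA 12 h B (0.0812). miR-30e-5p did not pass without PA 12 h B (0.103) or without DMSO 12 h B (0.158), where its log2 fold change was 0.48.

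The other members did not pass at 12 h. miR-30b-5p had 1750 and 1488 CPM with PA against 1180 and 1193 CPM with DMSO, a log2 fold change of 0.45 ± 0.15 (edgeR adjusted p = 0.0681). miR-30d-3p had 68.6 and 90.8 CPM with PA against 41.5 and 52.7 CPM with DMSO, a log2 fold change of 0.77 ± 0.25 (adjusted p = 0.0605). In both, the 2 groups did not overlap, which is no support for a difference with 2 libraries each. miR-30a-5p and miR-30c-5p stood at log2 fold changes of -0.01 ± 0.17 and -0.02 ± 0.15, with overlapping groups. miR-30a-5p had 4502 and 5295 CPM in PA 12 h and a wider spread in DMSO 12 h, at 5829 and 4004 CPM. Entries that lie in tRNA, rRNA, U2 or snoRNA, a sign of RNA quality, summed to 6836 to 11421 CPM in PA 12 h and to 3586 to 6093 CPM in DMSO 12 h. All 16 such entries were in the table, and of the 11 tested 1 was higher and 0 were lower with PA, where 11.1% of all entries passed. That 1 was miR-4454 (log2 fold change 1.10, edgeR adjusted p = 0.0498), the most abundant of them at 2248 to 10171 CPM over the 14 libraries. The 11 went both ways, from -2.01 (miR-1291) to 1.68 (miR-1290), with a median of 0.26. The red blood cell markers summed to 406 to 503 CPM in PA 12 h and to 540 to 591 CPM in DMSO 12 h, and the fibroblast and endothelial markers to 495 to 678 CPM in PA 12 h and to 395 to 443 CPM in DMSO 12 h. Of the 4 markers of the line, 1 was lower with PA, miR-221-3p (log2 fold change -0.83, edgeR adjusted p = 0.0468), and 0 were higher. The part of these markers and entries in the 12 h differences was not tested.

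At 3 h the groups lay close together. miR-30a-5p had 5637 and 5999 CPM in PA 3 h against 5604 and 6127 CPM in DMSO 3 h, and miR-30d-5p 2017 and 1969 CPM in PA 3 h against 1982 and 2002 CPM in DMSO 3 h. The log2 fold changes of the 5p members ran from -0.04 (miR-30b-5p) to 0.10 (miR-30e-5p), and none passed. miR-30d-3p had 53.0 and 53.8 CPM with PA against 40.9 and 41.5 CPM with DMSO, without overlap, a log2 fold change of 0.38 ± 0.25 that did not pass (edgeR adjusted p = 1). In all, 0 of 6 members passed, beside 0.247% of the 810 entries. At an unadjusted p under 0.05 it was 0 members and 14 of the 810 entries, and DESeq2 also called 0 members.

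At 24 h, 0 of 6 members passed by edgeR, where 6.67% of all entries did; at an unadjusted p under 0.05 it was 2 members and 169 entries, and DESeq2 called 1 member and 64 entries. miR-30d-5p had 1910 and 1802 CPM in PA 24 h against 1355 and 1409 CPM in DMSO 24 h, without overlap and opposite in sign to 12 h. Its log2 fold change was 0.43 ± 0.14 (edgeR adjusted p = 0.0848). It passed with DESeq2 (log2 fold change 0.46, adjusted p = 0.0403), and with edgeR when the 4 libraries of 12 h were left out (0.47, adjusted p = 0.0241). These were the only 2 of 22 alternatives in which it passed, and over all of them its log2 fold change ran from 0.24 to 0.49. miR-30a-5p had 5589 and 5268 CPM in PA 24 h against 4475 and 4527 CPM in DMSO 24 h, a log2 fold change of 0.27 ± 0.17 (adjusted p = 0.416). miR-30e-5p overlapped between the groups, with 3189 and 2573 CPM in PA 24 h against 2886 and 2475 CPM in DMSO 24 h. miR-30d-3p stood at 65.8 and 49.6 CPM in PA 24 h against 38.1 and 42.0 CPM in DMSO 24 h, a log2 fold change of 0.54 ± 0.25 (adjusted p = 0.235). miR-30b-5p and miR-30c-5p had log2 fold changes of 0.03 and -0.12. Of the 4 markers of the line, 1 was higher with PA at 24 h, miR-100-5p (0.56, edgeR adjusted p = 0.0321), and 0 were lower.

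**Figure D2:**
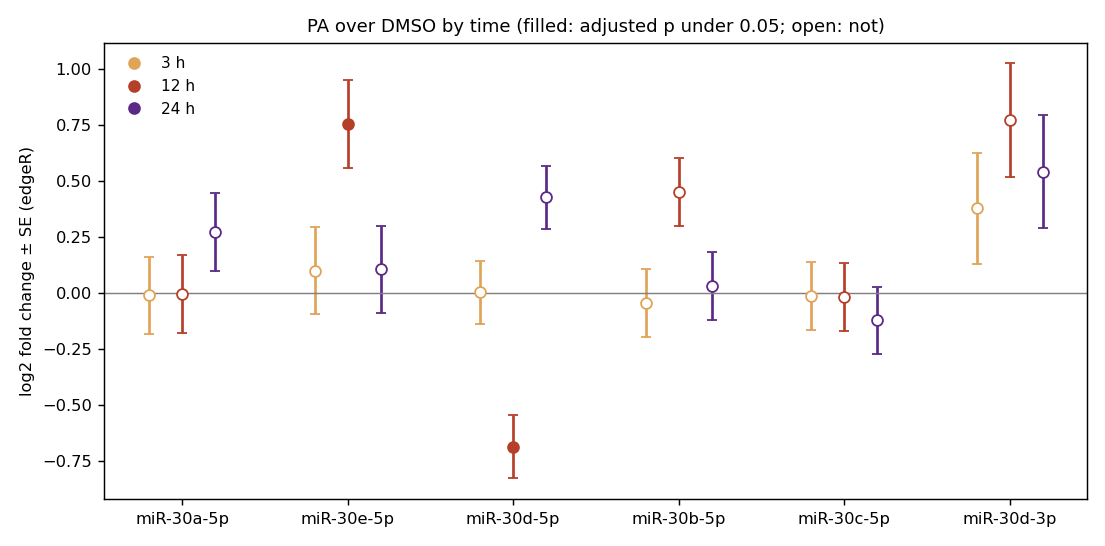
Points are log2 fold changes of PA over DMSO for the 6 members at 3, 12 and 24 h, with bars of 1 SE of the edgeR fit, filled where the adjusted p was under 0.05. The filled points are miR-30e-5p (0.75) and miR-30d-5p (-0.69) at 12 h, and miR-30d-3p is above 0 at each time (0.38, 0.77 and 0.54) without a filled point.

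The PA effect on miR-30d-5p differed between 3, 12 and 24 h by an interaction test (edgeR adjusted p = 0.00746). It was the only one of the 6 members to pass, where 5.93% of all entries did. The effect at 24 h exceeded that at 12 h by 1.11 ± 0.20 on the log2 scale (edgeR adjusted p = 0.00387, with 8.64% of entries passing), and this step passed with each of the 14 libraries left out in turn. The steps from 3 to 12 h (-0.69 ± 0.20, adjusted p = 0.0998) and from 3 to 24 h (0.42 ± 0.20, adjusted p = 0.393) did not pass. Both arms enter these steps, and the level in DMSO moved most. Against DMSO 0 h, miR-30d-5p stood at 0.49 ± 0.14 in DMSO 12 h and at -0.32 ± 0.14 in DMSO 24 h. Against PA 3 h it stood at -0.41 ± 0.14 in PA 12 h and at -0.10 in PA 24 h, and neither passed (edgeR adjusted p = 0.346 and 0.790). The test over the 3 times lost its call without the filter on low counts (adjusted p = 0.0655), without PA 12 h A (0.0650), PA 12 h B (0.0583), DMSO 24 h A (0.0511) or DMSO 24 h B (0.0554). For miR-30e-5p the PA effect at 12 h stood 0.65 ± 0.28 above that at 3 h (adjusted p = 0.279), and the test over the 3 times gave an adjusted p of 0.223. Without DMSO 12 h A that test passed for miR-30e-5p (adjusted p = 0.0226).

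Averaged over the 3 times, 0 of 6 members passed in the edgeR fit with time as a factor, and so did 0 of the 808 entries it tested (percent called 0), with 118 at an unadjusted p under 0.05. DESeq2 called 21 entries. miR-30d-3p was among them: its mean log2 fold change was 0.56 ± 0.15 in edgeR (unadjusted p = 0.00222, adjusted p = 0.154), and its DESeq2 adjusted p was 0.0361. As description only, its lowest PA library at 3 h and at 12 h lay above the highest DMSO library of the same time, as did its lowest at 24 h (49.6 against 42.0 CPM). Across times the arms overlapped, at 49.6 to 90.8 CPM with PA and 36.6 to 52.7 CPM with DMSO. miR-30e-5p had a mean log2 fold change of 0.32 (unadjusted p = 0.0443, adjusted p = 0.341). The remaining members lay between -0.09 (miR-30d-5p) and 0.14 (miR-30b-5p). The members' median was 0.11, against -0.01 over all entries.

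The difference at 12 h coincided with a shift in the DMSO arm. In DMSO 12 h, set against the mean of DMSO at 0, 3 and 24 h, miR-30e-5p was lower by -0.86 ± 0.17 on the log2 scale (edgeR adjusted p = 0.00286) and miR-30b-5p by -0.48 ± 0.13 (adjusted p = 0.0185). miR-30d-5p was higher by 0.53 ± 0.11 (adjusted p = 0.00399). These were 3 of 6 members, where 16.5% of all entries passed. miR-30e-5p had 3654 and 3566 CPM in DMSO 0 h, 3324 and 3649 CPM in DMSO 3 h, 2168 and 1397 CPM in DMSO 12 h and 2886 and 2475 CPM in DMSO 24 h. miR-30d-5p had 1697 and 1747 CPM in DMSO 0 h, 1982 and 2002 CPM in DMSO 3 h, 2340 and 2502 CPM in DMSO 12 h and 1355 and 1409 CPM in DMSO 24 h. miR-30b-5p stood at 1180 and 1193 CPM in DMSO 12 h and at 1459 to 1792 CPM in the other DMSO libraries.

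Markers of the line, markers of other cells and signs of RNA quality were read in the same DMSO libraries. The red blood cell markers summed to 540 to 591 CPM in DMSO 12 h and to 315 to 397 CPM in the other DMSO libraries, and of these 3 the 1 tested, miR-486-5p, was higher by 0.68 on the log2 scale (edgeR adjusted p = 0.00399). The fibroblast and endothelial markers summed to 395 to 443 CPM in DMSO 12 h and to 651 to 843 CPM in the other DMSO libraries, and of the 4 tested 1 was lower, miR-126-3p (-0.61, adjusted p = 0.0168), and 0 were higher. The RNA quality entries summed to 3586 to 6093 CPM in DMSO 12 h and to 4177 to 8743 CPM in the other DMSO libraries, with 2 of 11 lower. Of the 4 markers of the line, 2 were higher in DMSO 12 h and 0 were lower. In this comparison 16.5% of all entries passed. The part of these markers and entries in the members' shift was not tested.

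For each of these 3 members the DMSO 12 h pair lay outside the range of the other 6 DMSO libraries. They were picked by a comparison with those same libraries, so this adds no separate support. The calls of miR-30e-5p and miR-30d-5p held with each library left out in turn, although miR-30d-5p missed the threshold without the filter on low counts (edgeR adjusted p = 0.0563). The call of miR-30b-5p was lost on leaving out DMSO 12 h A (0.0761), DMSO 12 h B (0.0769) or DMSO 24 h B (0.0527), and in a fit of the DMSO libraries alone (0.0671). miR-30a-5p, miR-30c-5p and miR-30d-3p did not pass (-0.08, -0.13 and 0.18).

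The PA 12 h levels of miR-30e-5p, miR-30d-5p and miR-30b-5p lay nearer to the DMSO levels of the other times than the DMSO 12 h levels did. These 3 were picked because DMSO 12 h departed from those same levels, so this is description only and no separate support. Set against the mean of DMSO at 0, 3 and 24 h, the 5p members in PA 12 h had log2 differences from -0.16 (miR-30d-5p) to -0.03 (miR-30b-5p), and none passed. miR-30d-3p was higher in PA 12 h by 0.95 ± 0.19, a 1.93-fold difference (edgeR adjusted p = 0.0451). It was 1 of 6 members, where 0.617% of all entries passed. This call was close to the threshold: it was lost with RLE size factors (adjusted p = 0.0566), with library totals alone (0.0522), with the replicate letter as a block (0.0672), and with 8 of the 14 libraries left out in turn. Those were PA 3 h A (0.0846), PA 3 h B (0.0772), PA 12 h B (0.541), DMSO 0 h A (0.0964), DMSO 3 h A (0.152), DMSO 3 h B (0.0909), DMSO 24 h A (0.114) and DMSO 24 h B (0.0745). The PA 12 h and the DMSO 12 h comparisons use the same DMSO libraries of other times and are given side by side for that reason.

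**Figure D3:**
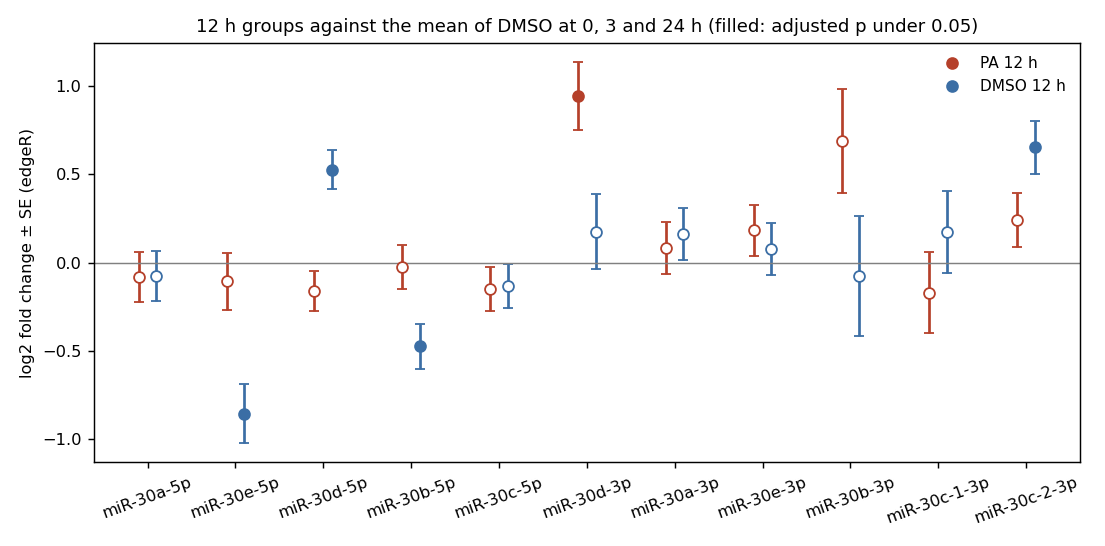
Log2 fold changes of the PA 12 h group and of the DMSO 12 h group, both against the mean of DMSO at 0, 3 and 24 h, are drawn for the 6 members and the 5 other arms of their hairpins, with bars of 1 SE and filled points where the adjusted p was under 0.05. PA 12 h has 1 filled point, miR-30d-3p (0.95), and DMSO 12 h has 4, miR-30e-5p (-0.86), miR-30d-5p (0.53), miR-30b-5p (-0.48) and miR-30c-2-3p (0.65).

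In a joint test for any difference among DMSO at 0, 3, 12 and 24 h, miR-30d-5p (edgeR adjusted p = 0.00623) and miR-30e-5p (0.00857) passed, 2 of 6 members where 13.1% of all entries did. Against DMSO 0 h, miR-30d-5p passed at 12 h (0.49, edgeR adjusted p = 0.0309) but not at 3 h (0.21, 0.617) or 24 h (-0.32, 0.242). miR-30e-5p likewise passed at 12 h (-1.02, 0.00353) but not at 3 h (-0.05, 0.966) or 24 h (-0.43, 0.257). Without the 4 libraries of 12 h only miR-30d-5p of these 2 still passed, and miR-30e-5p did not (adjusted p = 0.132). The miR-30d-5p call was lost without DMSO 24 h A (0.0568) or DMSO 24 h B (0.0647). Between PA 24 h and PA 3 h, 0 of 6 members passed by edgeR or DESeq2 and 0 had an unadjusted p under 0.05, where 3.95% of entries did by edgeR. miR-30e-5p had the largest difference of the 6, at 2881 ± 436 CPM in PA 24 h and 3731 ± 309 CPM in PA 3 h (SD, n = 2 each), with a log2 fold change of -0.37 (adjusted p = 0.336, edgeR).

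The make-up of the family within a library does not depend on the scaling between libraries. miR-30d-5p made up 12.2% and 11.8% of the summed 5p counts in PA 12 h, against 17.9% and 23.7% in DMSO 12 h. miR-30e-5p made up 23.1% and 24.8% in PA 12 h, against 16.6% and 13.2% in DMSO 12 h. In the other 10 libraries miR-30d-5p took 11.3% to 14.1% and miR-30e-5p 20.1% to 26.4%. The half-width of the 95% Wilson intervals of these shares was at most 0.886 percentage points, for counting error only. The ratio of miR-30e-5p to miR-30d-5p was 1.89 and 2.11 in PA 12 h, and 0.927 and 0.558 in DMSO 12 h. It was 1.43 to 2.15 in the other 10 libraries. DMSO 12 h was thus the only group in which miR-30d-5p had more reads than miR-30e-5p. Both members had been called at 12 h from these same counts, so the shares and ratios are description only.

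miR-30d-3p also stood apart from its own hairpin's other arm at 12 h of PA. Its share of the counts of both arms was 4.40% (95% Wilson interval 3.73% to 5.18%) and 5.65% (4.98% to 6.41%) in PA 12 h, against 1.74% (1.39% to 2.19%) and 2.06% (1.60% to 2.66%) in DMSO 12 h. In PA 3 h it was 2.56% and 2.66%, against 2.02% and 2.03% in DMSO 3 h. PA 24 h had 3.33% and 2.68%, against 2.74% and 2.90% in DMSO 24 h, and DMSO 0 h had 2.11% and 2.79%. The 2 PA 12 h libraries were the highest of the 14. At 24 h the groups overlapped, although the CPM of both arms had been higher in PA 24 h than in DMSO 24 h. The share joins 2 entries already described as apart at 12 h in these same counts, so it is description only and no separate support. Its intervals cover counting error only. Replicates differed by more than that, with a chi-square over its degrees of freedom of 59.6 in PA 12 h and 78.0 in DMSO 12 h.

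**Figure D4:**
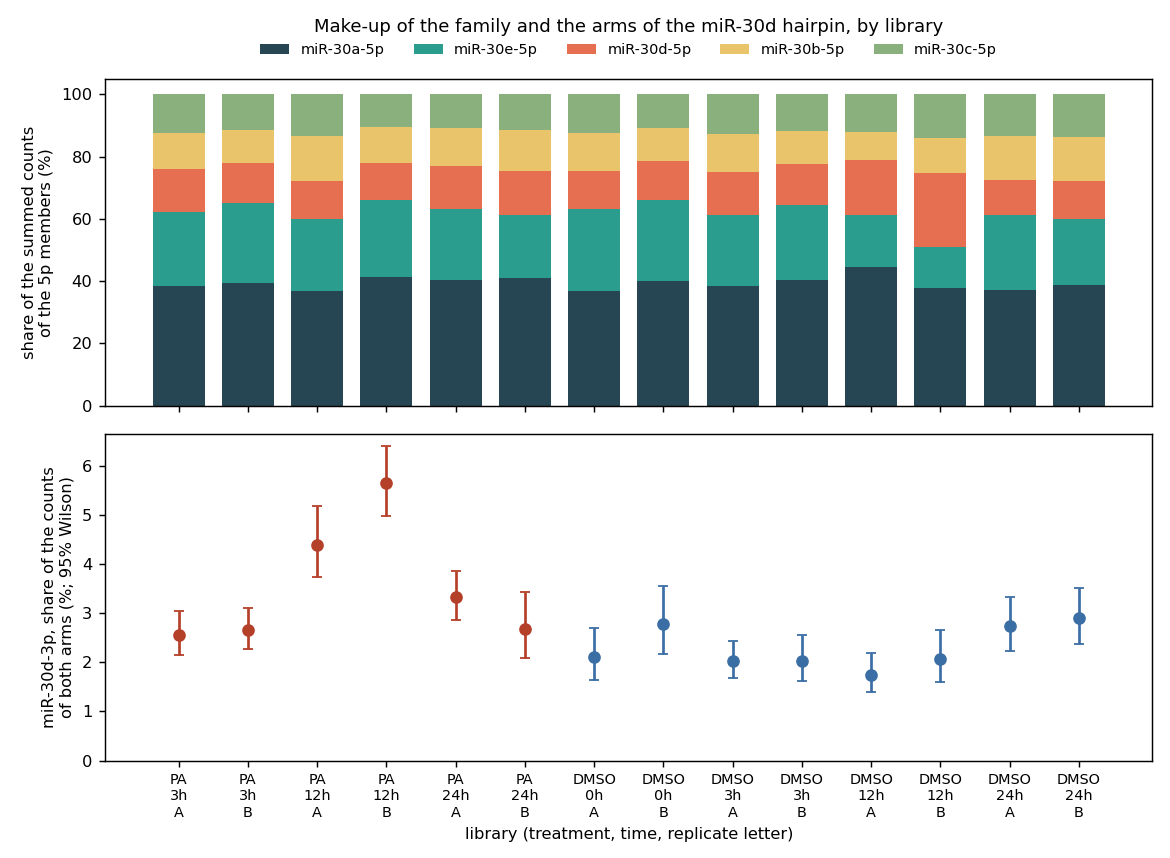
The upper panel stacks the shares of the 5 abundant members in their summed counts for each library, in percent, and the lower panel plots the share of miR-30d-3p in the counts of both arms of its hairpin with 95% Wilson intervals, PA libraries left of DMSO libraries. The miR-30d-5p band is widest in DMSO 12 h (17.9% and 23.7%), and the miR-30d-3p share is highest in PA 12 h (4.40% and 5.65%).

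The 5 other arms of the hairpins were all in the table and all tested, and in the fits reported here 0 of 5 passed by edgeR or DESeq2 in any comparison of PA with DMSO or over PA times. At an unadjusted p under 0.05, 0 to 2 of the 5 did so in each of these comparisons, where 14 to 213 of all entries did. miR-30e-3p, the partner of miR-30e-5p, had 270 and 280 CPM in PA 12 h against 262 and 248 CPM in DMSO 12 h, a log2 fold change of 0.11 ± 0.18 (edgeR adjusted p = 0.767). Its share of the counts of both MIR30E arms was 8.75% and 8.08% in PA 12 h, against 10.8% and 15.1% in DMSO 12 h, and 5.53% to 10.0% in the other 10 libraries. So miR-30e-5p was low in DMSO 12 h while the level of its partner arm was near that of the other DMSO groups. At 24 h miR-30e-3p had 214 and 151 CPM with PA against 266 and 276 CPM with DMSO, a log2 fold change of -0.56 ± 0.18 (edgeR adjusted p = 0.0816). It passed with library totals alone (-0.75, adjusted p = 0.0111) and without PA 24 h A (-0.82, adjusted p = 0.0205), and over all settings ran from -0.82 to -0.31 (adjusted p = 0.0111 to 0.594).

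miR-30c-2-3p was the other arm that passed, and in the DMSO libraries only. It had 118 and 135 CPM in DMSO 12 h against 68.1 to 89.0 CPM in the other DMSO libraries, higher by 0.65 ± 0.15 on the log2 scale (edgeR adjusted p = 0.00775). That call was lost without DMSO 12 h B (adjusted p = 0.0806) and without the filter on low counts (0.0912). Over the DMSO times its adjusted p was 0.0369, and this call held with only 2 of the 14 libraries left out, PA 24 h A or PA 24 h B, against 0.0522 to 0.185 without any other. PA 12 h had 101 and 88.8 CPM. miR-30b-3p, the least abundant arm, had 30.8 and 29.1 CPM in PA 12 h against 12.5 and 23.6 CPM in DMSO 12 h, from 22 to 73 counts, and its log2 fold change of 0.77 ± 0.39 did not pass (adjusted p = 0.228).

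The members differed in their course over the libraries. After centring each entry's log2 CPM on its own mean over the 14 libraries, the root mean square difference was smallest for miR-30b-5p and miR-30c-5p (0.17), then miR-30a-5p and miR-30c-5p (0.18). From a flat course the difference was 0.178 for miR-30a-5p, 0.184 for miR-30b-5p and 0.129 for miR-30c-5p. Small values between these members thus go with entries that varied little, and do not show a shared course. These are descriptions over libraries that share groups and scaling. The entries named next were picked by their course over the same libraries, so their levels there are no separate result. Of 676 named entries outside the 6, those most like miR-30d-5p were miR-181b-5p and miR-128-3p (0.18 each, median over candidates 0.52), a haematopoietic and a neuronal miRNA by their best-known roles. Both had their highest group mean in DMSO 12 h, at 1054 CPM for miR-181b-5p and 724 CPM for miR-128-3p. Most like miR-30e-5p were miR-29b-3p (0.16), a repressor of collagen genes, and miR-1307-5p (0.18). Their means were 1282 and 357 CPM in PA 12 h, against 859 and 238 CPM in DMSO 12 h. For miR-30d-3p they were miR-27a-5p (0.24), itself the minor arm of its hairpin, and miR-629-5p (0.25). miR-27a-5p averaged 447 CPM in PA 12 h against 338 CPM in DMSO 12 h. miR-30a-5p was closest to miR-3074-5p (0.13) and miR-26b-5p (0.14), miR-30b-5p to miR-107 and let-7b-5p (0.11 each), and miR-30c-5p to let-7a-5p (0.07) and miR-29a-3p (0.11).

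Other miRNAs of the epithelial state did not pass in any comparison when all libraries were kept. Of 8 names, among them the miR-200 family that represses ZEB1 and ZEB2, 7 were in the table and 5 were tested (6 in the fit averaged over times), with 0 called by edgeR or DESeq2 and at most 1 at an unadjusted p under 0.05 in any comparison. By comparison 0% to 16.5% of all entries passed by edgeR, and with so few tested a count of 0 is near that share. The sum of these miRNAs was low, at 55.0 to 87.6 CPM in PA 12 h and 51.8 to 60.3 CPM in DMSO 12 h, below miR-30e-5p alone in every library. miR-141-3p, at 0 counts in DMSO 12 h B and at most 18.3 CPM elsewhere, passed when DMSO 12 h A was left out, higher with PA at 12 h (edgeR adjusted p = 0.0238, against 0.215 with all libraries) and lower in DMSO 12 h than at the other DMSO times (0.0270, against 0.224). The group then rests on 1 library at 0, so no fold is given.

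Of 11 names tied to pancreatic epithelium and endocrine development, 10 were in the table and 8 were tested. At 12 h, 3 of the 8 rose with PA and 0 fell, where 11.1% of all entries passed. They were miR-34a-5p, a p53 target (log2 fold change 1.12 ± 0.25, edgeR adjusted p = 0.0108), miR-9-5p (0.67 ± 0.17, 0.0235) and miR-29b-3p (0.58 ± 0.18, 0.0498). In a fit of the 12 h libraries alone 0 of these 3 passed. miR-34a-5p was lost without DMSO 12 h B (adjusted p = 0.0840), and miR-9-5p without PA 12 h A (0.101), PA 12 h B (0.0684) or DMSO 12 h B (0.0936). miR-29b-3p passed with only 4 of 14 libraries left out, PA 24 h A or B, DMSO 0 h A or DMSO 12 h A, and otherwise had 0.0504 to 0.260. It also missed the threshold with RLE size factors (0.0571) and with named entries only (0.0710). In DMSO 12 h against the other DMSO times, 4 of the 8 were lower, where 16.5% of all entries passed: miR-34a-5p (-0.87), miR-29b-3p (-0.74), miR-29c-3p (-0.56) and miR-29a-3p (-0.40). Without DMSO 12 h B 0 of these 4 passed (adjusted p = 0.0630 to 0.376), while miR-29a-3p was also lost without DMSO 0 h B, 3 h B or 24 h B (0.0513 to 0.0578) and miR-29c-3p without DMSO 0 h A or 24 h A (0.0504 and 0.0576). At 24 h 1 of the 8, miR-7-5p, an islet miRNA, was lower with PA, where 6.67% of all entries passed (-1.01 ± 0.22, adjusted p = 0.0116), a call lost without PA 24 h B (0.117), DMSO 24 h A (0.0687) or DMSO 24 h B (0.0951).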

How the data were processed

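The count table that the authors deposited holds whole read counts for each mature miRNA and library and was used throughout; their TPM table was not used. The submitters' processing notes name bcl2fastq, Bowtie, edgeR and GRCh38. Tool versions and roles, annotation, strand use and the treatment of reads that match several entries are not given in the sources used here. Every value column could be tied to 1 library by its title, leaving 0 unused.

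The counts were fitted with edgeR 4.0.16 in R 4.3.3 (robust quasi-likelihood F test, TMM, filterByExpr by group with minimum count 10 and minimum total 15) and limma 3.58.1, with 1 coefficient per group over all 14 libraries. The mean PA effect used time as an additive factor on the 3, 12 and 24 h libraries. P-values were adjusted (Benjamini-Hochberg) over all entries tested. The SE is the absolute log2 fold change over the square root of F. The scripts were tested on simulated data. Alternatives were RLE factors, library totals, no filter, DESeq2 1.42.0, only the groups compared, the replicate letter as a block, named entries only, each library left out, and no 12 h libraries. The members and lists were chosen with earlier results of these data known. Entries named were the 6 members, the other arms, members of the epithelial and pancreatic lists that passed, and the 2 entries most like each member, beside markers of the line and of other cells. Whether A and B were separate cultures is not in the labels (the design text speaks of a biological replicate), so p-values measure the spread between these libraries. Wilson intervals cover counting error only, since PCR copies are not independent molecules. The letters did not pair libraries: of 21 pairs of groups, 1 had A minus B differences correlated above 0.1.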

Additional observations from a re-analysis of the deposited data

Results flagged for a closer look

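The effect of PA on miR-30d-5p differed between exposure times by the interaction test (edgeR adjusted p = 0.00746). miR-30d-5p stood at 2017 and 1969 CPM in PA 3 h against 1982 and 2002 CPM in DMSO 3 h, at 1490 and 1515 CPM in PA 12 h against 2340 and 2502 CPM in DMSO 12 h, and at 1910 and 1802 CPM in PA 24 h against 1355 and 1409 CPM in DMSO 24 h. From 12 to 24 h the DMSO levels moved further than the PA levels. Groups of 2 libraries are too small for a check of single libraries that stand apart within a group.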

How the results depend on the processing

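Counts of members that passed were within 1.5 times of the reported count in 165 of 194 repeats under other settings. That figure includes repeats in which 0 members passed in both fits. It also includes a count of 3 that became 2, as for DMSO 12 h against the other DMSO times without the filter. At 12 h of PA the count of 2 became 1 without the filter on low counts, 0 with only the groups compared, and 0 to 2 with each library left out. For the difference between times the count of 1 became 0 without the filter, 0 without the 12 h libraries, an alternative chosen after seeing the data, and 0 to 2 with each library left out. At 24 h of PA the count of 0 became 1 with DESeq2 and 1 without the 12 h libraries. The mean PA effect gave 1 in place of 0 with DESeq2. Over DMSO times the count of 2 became 1 without the 12 h libraries and 1 to 2 with each library left out. PA 12 h against the other DMSO times gave 0 in place of 1 with RLE size factors, with library totals alone and with the replicate block, and 0 to 1 with each library left out. The cause was not tested, beyond the fewer libraries or other entries that these settings use. The replicate block changed no other member's call. No fit with only the groups compared was run for the mean PA effect, which already uses those libraries alone.

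Single members kept their side of the threshold in 1128 of 1164 repeats, most of them of values not called in the reported fit. Of the changes, 32 were calls lost and 4 were calls gained. In settings that left out no single library, the miR-30d-3p call in PA 12 h against other DMSO times held in 4 of 7. The calls of PA against DMSO at 12 h held in 5 of 7 (miR-30d-5p) and 6 of 7 (miR-30e-5p). Signs turned in 71 repeats, all of them of values not called in either fit, and 0 called values changed sign. Over all entries the counts called moved by more than 1.5 times as follows. PA against DMSO at 12 h gave 33 with only the groups compared (90 reported). The mean PA effect gave 16 without the filter and 21 with DESeq2 (0 reported). The difference between times gave 22 with named entries only and 10 without the 12 h libraries (48 reported). DMSO over time gave 32 without the 12 h libraries (106 reported). PA 12 h against the other DMSO times gave 2 to 28 (5 reported). PA 24 h against PA 3 h gave 20 with only the groups compared and 19 with named entries only (32 reported). With each library left out these counts ran from 34 to 107 at 12 h of PA, 12 to 71 at 24 h, 25 to 87 for the difference between times, 67 to 136 over DMSO times, 79 to 148 for DMSO 12 h against the other DMSO times (134 reported) and 1 to 49 for PA 24 h against PA 3 h; at 3 h all settings gave 1 to 3 (2 reported). With library totals alone 29 of 75 calls at 24 h were higher with PA, against 35 of 54 with TMM, and the median of all entries moved to -0.19 on the log2 scale. In their lowest library miR-30d-3p had 58 counts, miR-30c-1-3p 46 and miR-30b-3p 17.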
